A study of Mus musculus with 6 samples.

Results

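The genes described here are the coreceptor and lineage factor genes of CD4 and CD8 T cells: Cd4, Cd8a, Cd8b1, Zbtb7b, Runx3 and Gata3. They were taken by gene symbol from the deposited count matrix, where 6 of 6 were found among 56413 symbols, and 6 of 6 passed the filter on low counts that left 18716 genes for testing. The study sequenced ribosomal RNA-depleted total RNA from whole mouse splenocytes, with 3 libraries labelled Top3b-KO and 3 labelled WT (wild type). Top3b encodes topoisomerase III beta, an enzyme that passes single strands of DNA or RNA through each other. The allele, the cells in which it is deleted, and the age, sex and strain of the mice are unstated in the sources used here, and nothing in them says that each library came from its own animal. P-values therefore measure the spread between these libraries, which may be technical. No treatment is named for either group.

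The libraries held 9941014 to 25473404 counts in Top3b-KO and 15262060 to 15860287 counts in WT, and the smallest total was Top3b-KO replicate 3. At these depths 3 counts correspond to 0.118 to 0.302 CPM (each count divided by its library's total after TMM scaling, the unit used to compare libraries). Top3b itself checks the labels: it averaged 49.8 ± 1.66 CPM in Top3b-KO and 91.0 ± 4.06 CPM in WT (SD, n = 3 each), a log2 fold change of -0.87 with an adjusted p of 5.78e-06 in edgeR's quasi-likelihood test. Its counts were 1257, 1216 and 491 in Top3b-KO and 1472, 1326 and 1449 in WT, so reads over the gene were fewer but not absent.

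T cells that mature in the thymus keep the coreceptor that fits the MHC molecule they recognise. CD4, a single chain, binds MHC class II, whereas CD8 on conventional T cells is a dimer of CD8 alpha and CD8 beta and binds MHC class I. The choice turns on opposed transcription factors: ThPOK, encoded by Zbtb7b, holds cells in the CD4 lineage, and Runx3 represses Cd4 and Zbtb7b in the CD8 lineage. GATA3 acts upstream of ThPOK in CD4 commitment and later directs type 2 helper T cells. In the spleen these genes are not private to T cells, since subsets of conventional dendritic cells carry CD4 or CD8 alpha, natural killer cells express Runx3, and innate lymphoid cells express Gata3.

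None of the 6 genes passed the test of Top3b-KO against WT. In edgeR's quasi-likelihood test 0 of 6 passed an adjusted p under 0.05, against 0.0107% of all genes tested, and 0 of 6 had an unadjusted p under 0.05, against 5.52% of all genes. In none of the 6 did the Top3b-KO values lie wholly above or below the WT values, which 11.0% of all genes tested did. Their median log2 fold change, Top3b-KO over WT, was 0.08, with 4 above 0 and 2 below 0, beside a median of -0.0029 over all genes tested. In bulk RNA such as this, fewer cells of a type and less RNA per cell cannot be told apart.

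Cd4, the MHC class II coreceptor, had 155.2, 154.2 and 147.6 CPM in Top3b-KO replicates 1 to 3, against 153.4, 152.7 and 128.6 CPM in WT replicates 1 to 3. Of the 6 libraries 5 lay close together, and WT replicate 3 was the low one. The means were 152 ± 4.14 CPM in Top3b-KO and 145 ± 14.1 CPM in WT (SD, n = 3 each). The log2 fold change was 0.07 (SE 0.073), its adjusted p being 0.950 in edgeR's test. The 95% interval of the fold change ran from 0.946 to 1.17.

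Cd8a, which encodes the chain present in every form of CD8, had 224.5, 212.1 and 208.2 CPM in Top3b-KO, against 225.0, 182.9 and 185.7 CPM in WT. WT replicate 1 was level with the highest Top3b-KO library, and the other two WT libraries lay below all of Top3b-KO. The means were 215 ± 8.49 CPM in Top3b-KO and 198 ± 23.6 CPM in WT. The log2 fold change was 0.12 (SE 0.077), with an adjusted p of 0.915 in edgeR's test and a 95% interval of the fold change from 0.972 to 1.22.

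Cd8b1, the beta chain found on conventional CD8 T cells and absent from CD8 alpha dendritic cells, was likewise highest in replicate 1 among the WT libraries. It had 106.0, 101.0 and 109.4 CPM in Top3b-KO, against 106.7, 93.48 and 90.91 CPM in WT. WT replicate 1 lay inside the Top3b-KO range while the other two WT libraries were below it. The mean was 105.5 ± 4.21 CPM in Top3b-KO and 97.0 ± 8.46 CPM in WT, and the log2 fold change of 0.12 (SE 0.073) had an adjusted p of 0.915 in edgeR's test. The interval of the fold change was 0.976 to 1.21.

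Leaving out a single WT library changed the log2 fold change of both CD8 chains by over 1.5 times, in either direction. Without WT replicate 1, the log2 fold change was 0.22 for Cd8a and 0.19 for Cd8b1, with unadjusted p of 0.0046 and 0.016 and adjusted p of 0.736 and 0.887 in edgeR's test. For Cd8a it was 0.07 without WT replicate 2 and 0.08 without WT replicate 3, and for Cd8b1 it was 0.07 without WT replicate 3. In no other alternative fit did any of the 6 genes have an unadjusted p under 0.05.

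**Figure D1:**
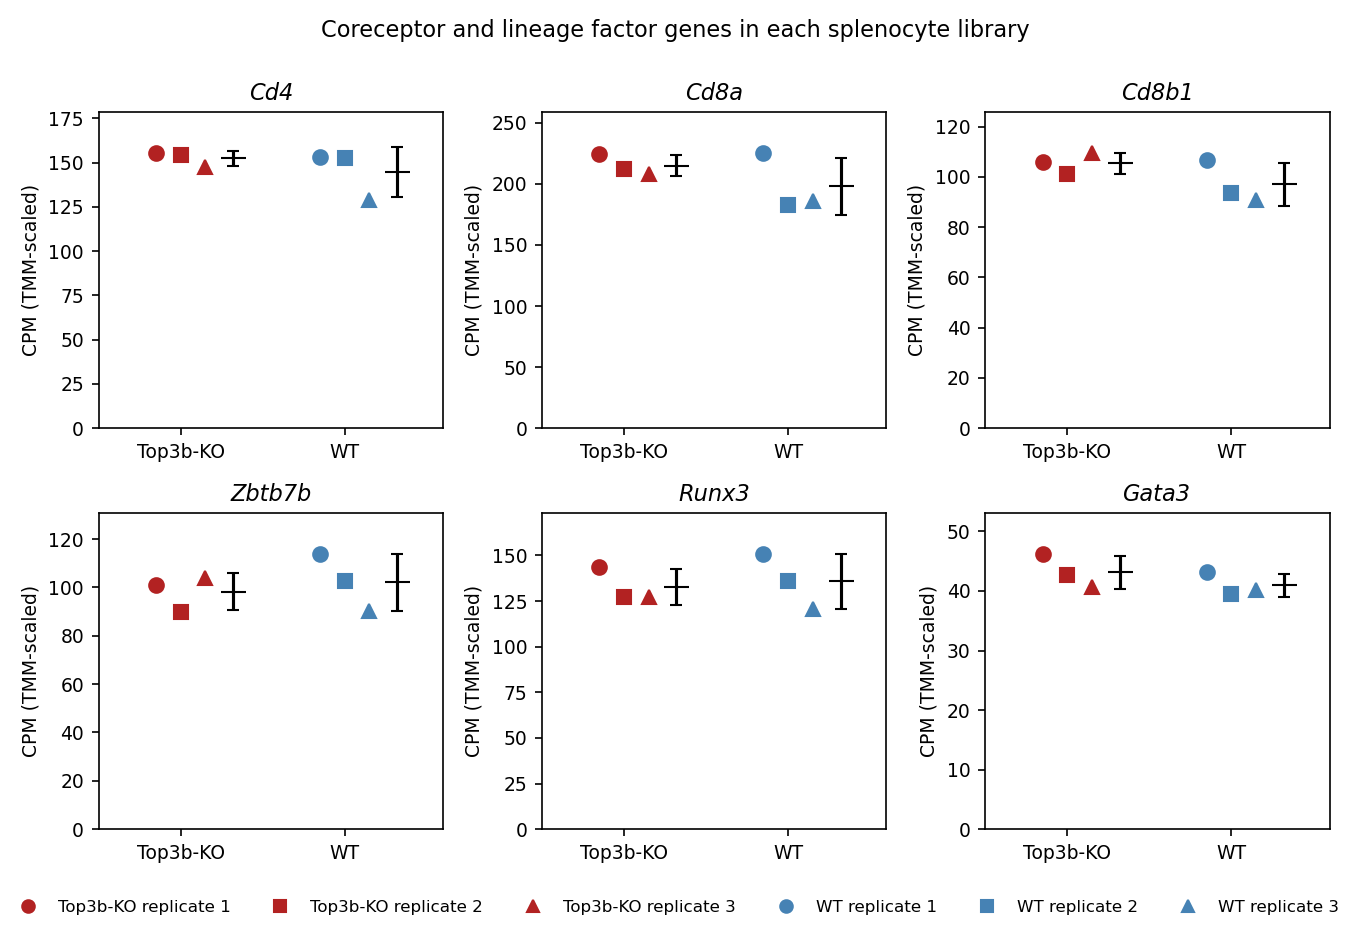
TMM-scaled CPM (vertical axes, starting at 0) of each of the 6 genes in the 3 Top3b-KO libraries (red) and the 3 WT libraries (blue), 1 point per library, with the mean ± SD beside each group. In every panel the ranges of the 2 groups overlap; for Cd8a and Cd8b1 WT replicate 1 lies at the Top3b-KO level, at 225.0 and 106.7 CPM.

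Zbtb7b, which encodes the CD4 lineage factor ThPOK, had 101.1, 89.67 and 103.9 CPM in Top3b-KO, against 113.7, 102.7 and 90.09 CPM in WT. The groups overlapped almost fully, with a WT library highest and a Top3b-KO library lowest. The means were 98.2 ± 7.53 CPM in Top3b-KO and 102 ± 11.8 CPM in WT. The log2 fold change was -0.06 (SE 0.083), with an adjusted p of 0.965 in edgeR's test and an interval of the fold change from 0.850 to 1.08.

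Runx3, the CD8 lineage factor, had 143.8, 127.0 and 127.3 CPM in Top3b-KO, against 150.6, 136.0 and 120.7 CPM in WT. WT replicate 1 was the highest library and WT replicate 3 the lowest, so the WT range enclosed the Top3b-KO range. The means were 133 ± 9.62 CPM in Top3b-KO and 136 ± 14.98 CPM in WT, and the log2 fold change was -0.03 (SE 0.080), with an adjusted p of 0.980 in edgeR's test. The fold change had an interval of 0.871 to 1.099.

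Gata3 was the lowest of the 6, at 46.16, 42.70 and 40.67 CPM in Top3b-KO, against 43.13, 39.53 and 40.14 CPM in WT. Replicate 1 was the highest library of each genotype, and the groups overlapped. The means were 43.2 ± 2.78 CPM in Top3b-KO and 40.9 ± 1.93 CPM in WT, and the log2 fold change of 0.08 (SE 0.081) had an adjusted p of 0.950 in edgeR's test. The interval of its fold change was 0.941 to 1.19.

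The 6 genes varied little from library to library. The highest library exceeded the lowest by 1.17-fold for Gata3, 1.20-fold for Cd8b1, 1.21-fold for Cd4, 1.23-fold for Cd8a, 1.25-fold for Runx3 and 1.27-fold for Zbtb7b. WT libraries held the lowest value of 5 of the 6, Zbtb7b being the exception, and WT replicate 1 the highest value of Cd8a, Zbtb7b and Runx3. The biological coefficient of variation that edgeR estimated for them, the spread between replicates beyond counting noise, was 6.78% to 7.65%. The median over all genes tested was 9.72%, but it covers genes of every level and is not a comparison at like levels. Over 15 genes expressed by T cells of either lineage the same measure ran from 5.97% (Trbc2) to 13.7% (Lat). The summed level of the 6 coreceptor and lineage factor genes was 726.7 to 776.8 CPM in Top3b-KO and 656.1 to 792.6 CPM in WT.

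**Figure D2:**
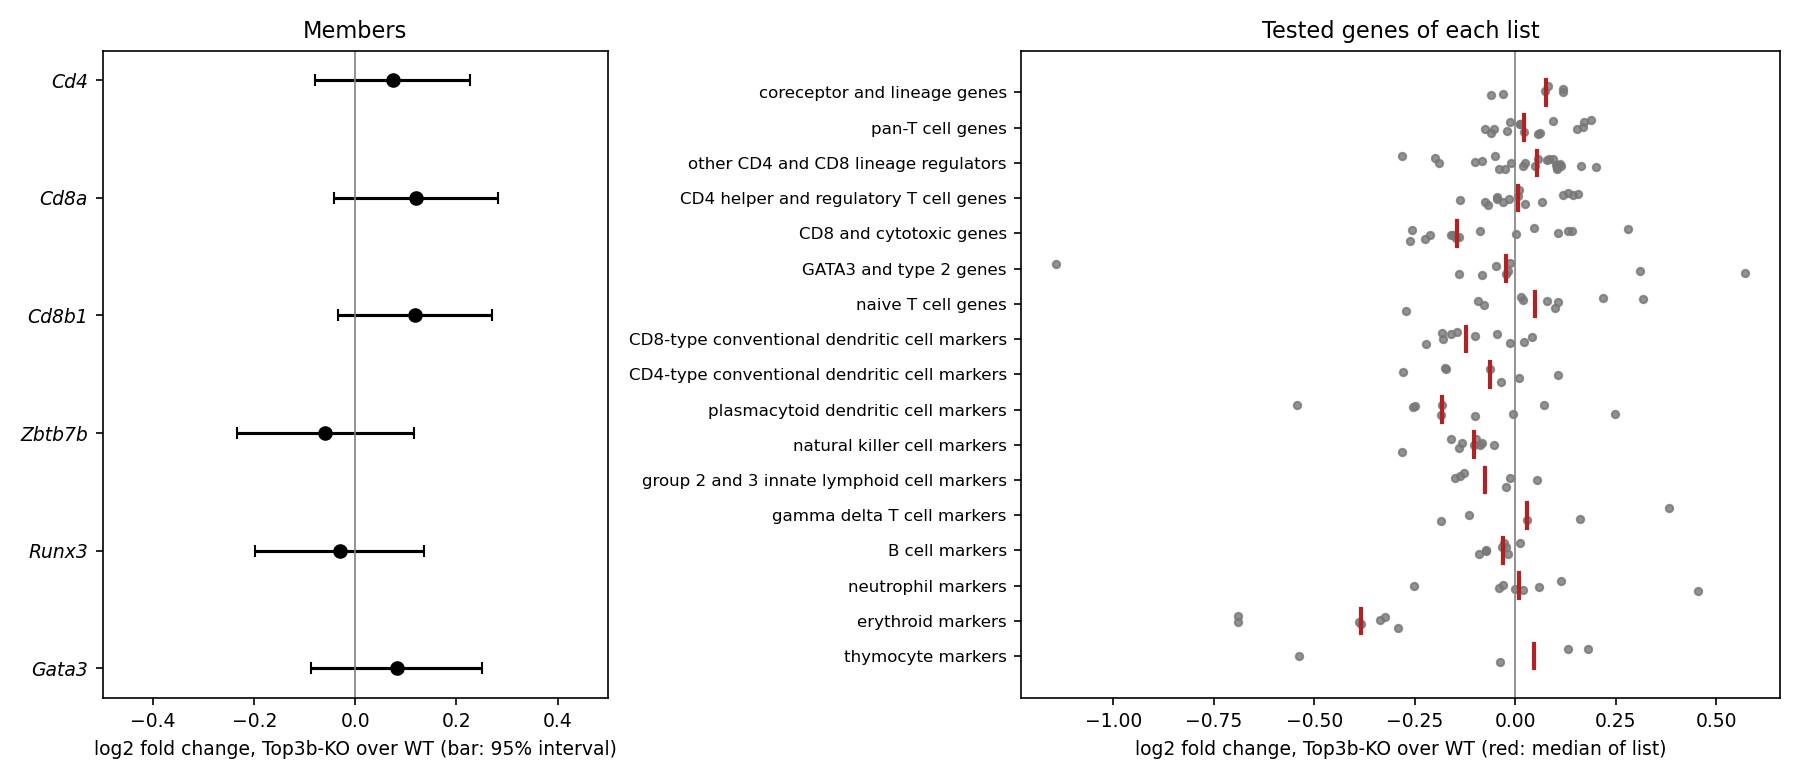
Left, log2 fold change (horizontal axis), Top3b-KO over WT, of each of the 6 genes with its 95% interval; right, the same fold change for each tested gene of the T cell lists and the lists of other cell types, 1 point per gene with the median of the list in red. All 6 intervals on the left include 0, and the 7 erythroid markers all lie below 0 with a median of -0.38.

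Scaled by exon length, so that genes can be set against each other, the CD8 chains stood highest. Cd8b1 averaged 71.1 ± 2.84 CPM per kilobase of exon in Top3b-KO and 65.4 ± 5.70 in WT, and Cd8a 68.6 ± 2.71 in Top3b-KO and 63.2 ± 7.52 in WT. These neighbours in the order did not differ beyond their spread. Cd4 followed with 49.0 ± 1.33 CPM per kilobase in Top3b-KO and 46.6 ± 4.54 in WT.

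Among the factors, Runx3 averaged 31.8 ± 2.31 CPM per kilobase in Top3b-KO and 32.5 ± 3.59 in WT, above Zbtb7b with 19.7 ± 1.51 in Top3b-KO and 20.45 ± 2.37 in WT. Gata3 came last, with 12.6 ± 0.809 CPM per kilobase in Top3b-KO and 11.9 ± 0.562 in WT. Apart from the CD8 chains, no neighbours in this order overlapped in any library: the lowest Cd8a value was 58.4 and the highest Cd4 value 49.95 CPM per kilobase, and the lowest Zbtb7b value was 17.95 and the highest Gata3 value 13.45. The lengths are exon unions of another annotation than the one behind the counts, so a gene whose transcripts use only some exons is understated.

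**Figure D3:**
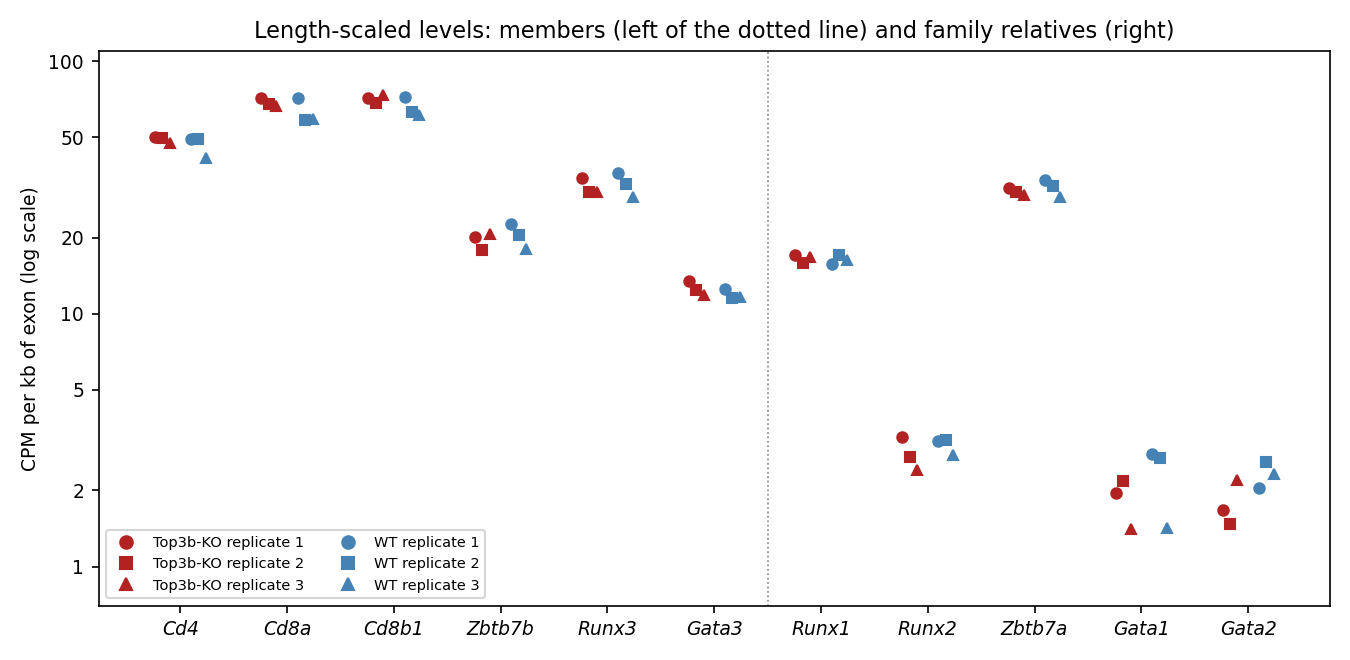
Length-scaled levels in CPM per kilobase of exon (vertical axis, log scale) in each Top3b-KO (red) and WT (blue) library, for the 6 genes left of the dotted line and for relatives from the Runx, Zbtb7 and Gata families right of it. The CD8 chains lie highest and overlap each other; Cd4, Runx3, Zbtb7b and Gata3 follow in separate bands.

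The CD4 to CD8 ratio was taken in each library as Cd4 counts over the summed counts of Cd8a and Cd8b1. It was 0.470, 0.492 and 0.465 in Top3b-KO replicates 1 to 3, with exact (Clopper-Pearson) 95% intervals of 0.452 to 0.488, 0.474 to 0.512 and 0.437 to 0.495. In WT replicates 1 to 3 it was 0.4625, 0.552 and 0.465, with intervals of 0.440 to 0.486, 0.525 to 0.581 and 0.441 to 0.490. WT replicate 2 stood apart: its interval lay above those of the other 5 libraries, which overlapped one another. These intervals cover at most counting error within a library and leave out the spread between libraries. They treat reads as independent. The reads carry no molecular identifiers and are not independent molecules, so the intervals are, if anything, too narrow.

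The mean CD4 to CD8 ratio was 0.476 ± 0.0147 in Top3b-KO and 0.493 ± 0.0512 in WT (SD, n = 3 each). The difference of mean log2 ratios, Top3b-KO minus WT, was -0.05 (SE 0.088), with p = 0.9 in a two-sided exact permutation test. With 3 libraries against 3 that test cannot go below 0.1. Leaving out WT replicate 2 turned the difference to 0.04. Per length, the same ratio was 0.349, 0.365 and 0.339 in Top3b-KO and 0.343, 0.405 and 0.343 in WT, and WT replicate 2 was again the highest.

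Dividing Cd4 by Cd8a alone gave 0.692, 0.727 and 0.709 in Top3b-KO and 0.682, 0.835 and 0.693 in WT. Dividing by Cd8b1 alone, the chain that dendritic cells lack, gave 1.46, 1.53 and 1.35 in Top3b-KO and 1.44, 1.63 and 1.415 in WT. With either chain WT replicate 2 was the highest library. The exact permutation p was 0.9 for the ratio to Cd8a and 0.7 for the ratio to Cd8b1.

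Cd8b1 over Cd8a, the beta chain of conventional CD8 T cells against the chain shared with dendritic cells, was 0.472, 0.476 and 0.525 in Top3b-KO and 0.474, 0.511 and 0.490 in WT. Top3b-KO replicate 3 was the highest, and the groups overlapped. The means were 0.491 ± 0.0296 in Top3b-KO and 0.492 ± 0.0186 in WT, with a log2 difference of -0.0020 (SE 0.059) and an exact permutation p of 0.9. Per length this ratio was near 1 in each library, at 0.997, 1.01 and 1.11 in Top3b-KO and 1.00, 1.08 and 1.03 in WT.

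Zbtb7b over Runx3, the opposed lineage factors, was 0.703, 0.706 and 0.816 in Top3b-KO and 0.755, 0.755 and 0.7465 in WT. The WT libraries were nearly identical, whereas Top3b-KO replicate 3, with an interval of 0.751 to 0.887, lay above the intervals of Top3b-KO replicates 1 and 2, which ended at 0.740 and 0.745. The means were 0.742 ± 0.0646 in Top3b-KO and 0.752 ± 0.00488 in WT. The log2 difference was -0.02 (SE 0.071), with an exact permutation p of 1.0. Top3b-KO replicate 3 was also the least deeply sequenced library, and the part of depth in its ratio was not tested.

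Each coreceptor was also set against the RNA of the CD3 chains (Cd3d, Cd3e, Cd3g and Cd247), which every T cell carries in its receptor complex. Cd4 over the CD3 chains was 0.325, 0.306 and 0.312 in Top3b-KO and 0.318, 0.333 and 0.301 in WT, a log2 difference of -0.01 (SE 0.049, exact permutation p = 0.8). The summed CD8 chains over the CD3 chains gave 0.691, 0.621 and 0.670 in Top3b-KO and 0.688, 0.603 and 0.648 in WT, a log2 difference of 0.03 (SE 0.072, exact permutation p = 0.6). The groups overlapped in both. Over the 5 ratios in the plot of ratios by library, each Benjamini-Hochberg adjusted p was 1.0.

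**Figure D4:**
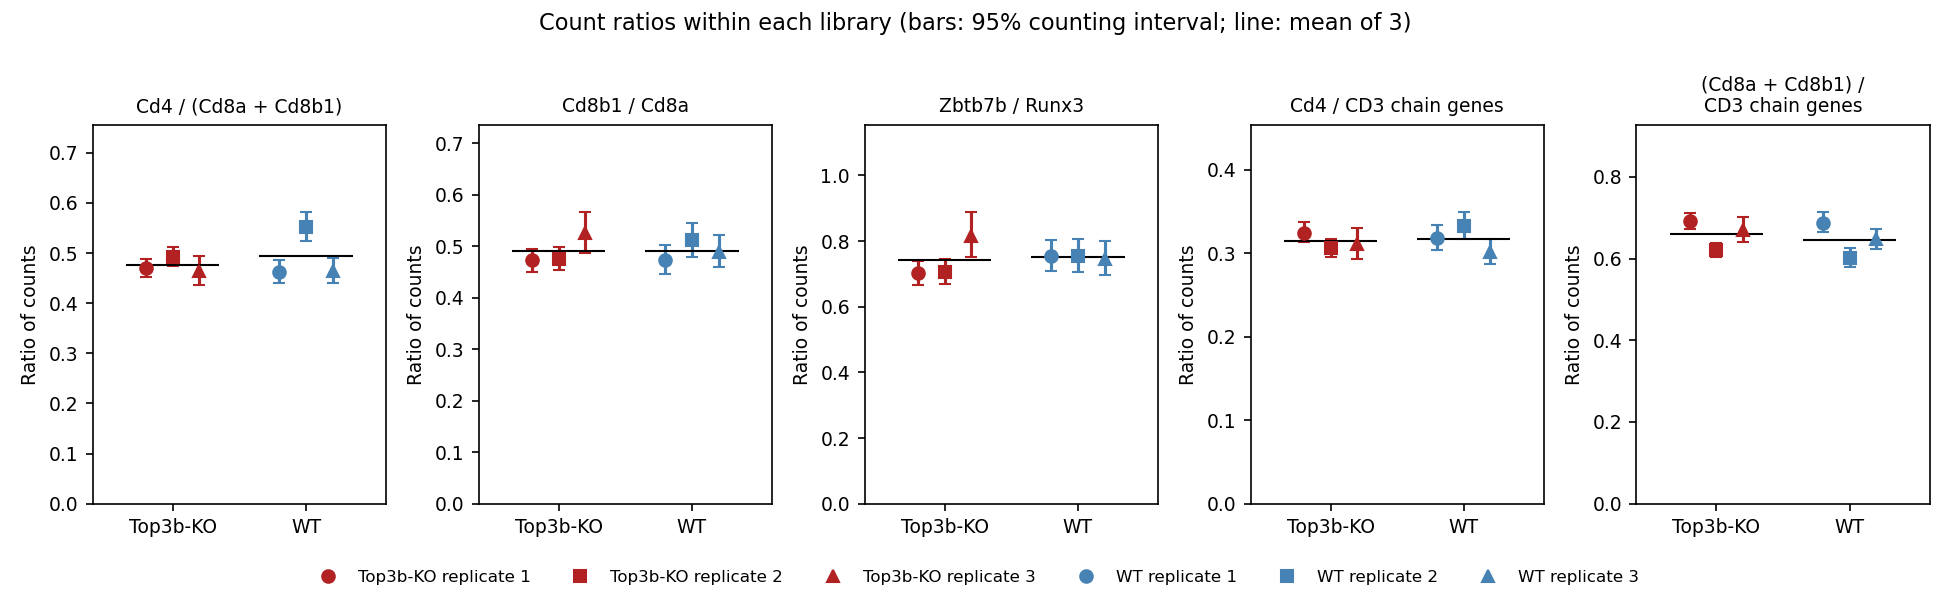
Ratios of counts (vertical axes, starting at 0, no unit) in each Top3b-KO (red) and WT (blue) library, with 95% Clopper-Pearson intervals as bars and the mean of 3 libraries as a line. WT replicate 2 is highest for Cd4 over the CD8 chains at 0.552, and Top3b-KO replicate 3 is highest for Zbtb7b over Runx3 at 0.816.

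RUNX proteins bind a short motif through their Runt domain, and a RUNX-bound silencer keeps Zbtb7b off in CD8 cells, so the start regions of the members were read for it. The set of RefSeq start regions used here had no entry for Cd4 or Cd8b1, so theirs were not read. It held 6 start sites for 4 of the members (Cd8a, Zbtb7b, Runx3 and Gata3). The 250 bases before each, on build GRCm38.p6 and not on the build of the counts, were searched on both strands for the RUNX motif ACCACA, the GATA motif AGATAA and the E-box CANNTG. The RUNX motif occurs in 14.0% of 32851 such windows over all genes, the GATA motif in 9.99% and the E-box in 66.2%. Only the windows before the upstream Runx3 start and the downstream Zbtb7b start held the RUNX motif, and none of the 6 held the GATA motif. The 3 windows shown are the pair with the RUNX motif, for the opposed lineage factors, and that of the coreceptor gene Cd8a, with RUNX motifs in capitals and each read 5′ to 3′ towards the start of the gene.
Runx3, upstream start, chr4:135120395-135120644, plus strand: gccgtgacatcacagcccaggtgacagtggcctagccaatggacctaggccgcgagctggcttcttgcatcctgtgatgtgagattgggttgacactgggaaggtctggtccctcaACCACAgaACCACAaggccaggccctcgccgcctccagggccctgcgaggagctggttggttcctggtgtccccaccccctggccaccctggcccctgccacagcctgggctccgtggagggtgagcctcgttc
Zbtb7b, downstream start, chr3:89387672-89387921, minus strand: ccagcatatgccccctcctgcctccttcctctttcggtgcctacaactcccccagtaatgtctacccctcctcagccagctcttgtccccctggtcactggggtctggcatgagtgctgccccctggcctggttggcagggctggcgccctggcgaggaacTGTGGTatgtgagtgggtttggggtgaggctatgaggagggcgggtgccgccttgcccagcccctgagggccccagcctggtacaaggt
Cd8a, chr6:71373177-71373426, plus strand: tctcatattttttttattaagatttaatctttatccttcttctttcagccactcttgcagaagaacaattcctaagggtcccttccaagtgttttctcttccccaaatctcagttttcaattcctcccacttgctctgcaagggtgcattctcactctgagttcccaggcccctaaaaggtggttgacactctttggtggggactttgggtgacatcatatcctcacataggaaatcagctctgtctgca

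The Runx3 window holds the RUNX motif at 2 places, beginning 134 and 126 bases before the start and separated by a pair of bases. It overlaps an exon of Gm16225, a long noncoding RNA, in the GENCODE annotation, and 65.2% of its bases are G or C. The window before the downstream Runx3 start, inside the gene, has 0 RUNX motifs and 78.8% G or C. The Zbtb7b window holds 1 motif on the opposite strand, beginning 89 bases before the start, and lies within the Zbtb7b gene outside any annotated exon. E-boxes occurred in 4 of the 6 windows, close to their share over all genes: 2 in the Cd8a window, 1 each in the Runx3 and Zbtb7b windows shown, and 2 before the other Zbtb7b start. The Cd8a window has 0 RUNX motifs and 42.8% G or C, and overlaps an exon of the noncoding gene Gm44174. A match is a description of these letters, and the counts are per gene, so transcripts from the different Runx3 or Zbtb7b starts were not separated here.

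Antisense genes overlap 3 of the members, and the sources used here do not say how strand was used in counting. Gm15417, antisense to Zbtb7b, had 143, 169 and 68 counts in Top3b-KO and 81, 111 and 116 in WT, a small fraction of the Zbtb7b counts of 2468, 2264 and 1027 in Top3b-KO and 1761, 1566 and 1434 in WT. Gm16224, antisense to Runx3, had 40, 21 and 13 counts in Top3b-KO and 27, 17 and 12 in WT. Gm13256, antisense to Gata3, had 1 to 6 counts in each library. If strand was not used, reads of each such antisense pair cannot be told apart. The protein-coding genes 4930412O13Rik (opposite strand) and 9230102O04Rik (same strand) also overlap Gata3 in the GENCODE annotation. Neither symbol is in the count matrix, and strand could not separate Gata3 from 9230102O04Rik. No annotated gene overlapped Cd4, Cd8a or Cd8b1.

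Each lineage factor was set against its relatives on the length-scaled level. Runx3 made up 62.1 ± 0.779% of the Runx family in Top3b-KO and 62.5 ± 2.79% in WT, with Runx1, the family member used by stem cells and early thymocytes, at 32.5 ± 1.32% in Top3b-KO and 31.7 ± 2.72% in WT. Runx2, the bone-forming factor, made up 5.44 ± 0.542% in Top3b-KO and 5.83 ± 0.160% in WT. Zbtb7b held 39.2 ± 2.09% of its sum with Zbtb7a in Top3b-KO and 39.2 ± 0.994% in WT. The groups overlapped in each of these shares.

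The Gata3 share was the exception. Gata3 was 78.8%, 77.3% and 76.65% of the summed Gata1, Gata2 and Gata3 level in Top3b-KO, against 72.2%, 68.5% and 75.8% in WT. The lowest Top3b-KO library was above the highest WT library. The difference was 5.41 percentage points, with p = 0.1 in the exact permutation test, the smallest that 3 against 3 allows, and the share was singled out after its values were seen. Gata1 made up 11.4 ± 2.20% in Top3b-KO and 13.7 ± 3.93% in WT, and Gata2 11.05 ± 2.76% in Top3b-KO and 14.1 ± 2.01% in WT. Both of these shares overlapped between the groups, as did the CPM of Gata3 itself. Gata1 and Gata2 are factors of red cell precursors, mast cells and progenitors. The 7 erythroid markers in the table that passed the filter all had a log2 fold change below 0, 0 of them passed the test, and they summed to 835.7 to 1232 CPM in Top3b-KO and 1031 to 1821 CPM in WT; their part in the Gata3 share was not tested.

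The other genes of the lineage choice, 24 regulators such as Tcf7, Tox, Myb, Bcl11b and the chromatin remodeller Chd4, were measured beside them. None of the 24 passed the adjusted threshold; 2 had an unadjusted p under 0.05 with higher levels (Lef1 and Il7r) and 2 with lower levels (Tcf3 and Id3). Over all genes tested, 5.52% had such a p, 342 of them higher and 691 lower in Top3b-KO. The median log2 fold change of the 24 regulators was 0.05, with 15 above 0 and 9 below. Ets1, Chd4 and Ikzf1 had the highest levels in CPM. Ets1, a factor that CD8 T cells need for Runx3 expression, averaged 1570 ± 62.9 CPM in Top3b-KO and 1485 ± 87.5 CPM in WT. Chd4, of the NuRD complex, averaged 991 ± 19.6 CPM in Top3b-KO and 953 ± 50.7 CPM in WT, and Ikzf1, which encodes Ikaros, 928 ± 13.2 CPM in Top3b-KO and 875 ± 20.5 CPM in WT.

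Of these regulators 8 had groups that did not overlap, 6 higher and 2 lower in Top3b-KO, beside 11.0% of all genes tested; a list of this kind shares cell types and its genes are not independent. The 4 named for their unadjusted p were chosen after their values were seen. Il7r, the receptor for interleukin 7 that sustains naive T cells, averaged 194 ± 7.12 CPM in Top3b-KO and 169 ± 4.11 CPM in WT (adjusted p 0.679, edgeR). Lef1, a factor needed for both Zbtb7b induction and CD8 identity, averaged 200.1 ± 3.46 CPM in Top3b-KO and 179 ± 10.4 CPM in WT (adjusted p 0.857, edgeR). Tcf3, which encodes E2A, averaged 169 ± 9.37 CPM in Top3b-KO and 194 ± 14.2 CPM in WT, and its inhibitor Id3 41.2 ± 3.02 CPM in Top3b-KO and 50.3 ± 4.89 CPM in WT; their adjusted p were 0.813 and 0.670 in edgeR's test. Cbfb, the DNA-binding partner of Runx3, averaged 177 ± 2.01 CPM in Top3b-KO and 164 ± 11.7 CPM in WT, a log2 fold change of 0.11.

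The T cell content that the coreceptors share was read from 15 genes expressed by T cells of either lineage. They summed to 2182 to 2244 CPM in Top3b-KO and 2004 to 2334 CPM in WT, and 0 of 15 passed the adjusted threshold. In edgeR's test 3 of 15 had an unadjusted p under 0.05, all higher in Top3b-KO, beside 5.52% of all genes tested. The signalling chain Cd3e and the costimulator Cd28 were among these 3. Only 1 of 15, Cd3e, had groups that did not overlap, beside 11.0% of all genes tested in either direction. Cd3e is also part of the CD3 chain sum used in the ratios above. Cd3e, singled out after its values were seen, averaged 174 ± 5.27 CPM in Top3b-KO and 155 ± 5.38 CPM in WT, with an adjusted p of 0.829 in edgeR's test. Lck, the kinase bound by CD4 and CD8, averaged 316 ± 16.9 CPM in Top3b-KO and 304 ± 47.2 CPM in WT. The adhesion receptor Cd2 averaged 215 ± 13.5 CPM in Top3b-KO and 223 ± 18.2 CPM in WT.

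Genes of CD4 helper and regulatory T cells overlapped between the genotypes. Of 15 tested, 0 passed the adjusted threshold, 0 had an unadjusted p under 0.05, and 0 had groups that did not overlap; the median log2 fold change was 0.0058. Cxcr5, which guides follicular helper T cells and B cells to follicles, averaged 117 ± 6.87 CPM in Top3b-KO and 123 ± 5.79 CPM in WT. Ikzf2, which encodes Helios, averaged 96.8 ± 5.30 CPM in Top3b-KO and 88.5 ± 7.36 CPM in WT, and Bcl6, the follicular helper and germinal centre factor, 80.4 ± 6.61 CPM in Top3b-KO and 81.3 ± 7.29 CPM in WT.

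Of the CD8 and cytotoxic genes 16 of 17 were tested, with 6 above 0, 10 below 0 and a median log2 fold change of -0.14, whereas both CD8 chains were at 0.12. None passed the adjusted threshold. Gzma, a granzyme of killer cells, averaged 87.7 ± 8.63 CPM in Top3b-KO and 96.5 ± 9.80 CPM in WT, and Ctsw, a protease of killer cells, 55.3 ± 2.50 CPM in Top3b-KO and 61.2 ± 10.1 CPM in WT. Ccl5, a chemokine of effector and memory T cells, averaged 50.9 ± 4.00 CPM in Top3b-KO and 60.5 ± 2.44 CPM in WT, with a log2 fold change of -0.26 and an adjusted p of 0.670 in edgeR's test. Many genes of this list are also made by natural killer cells, whose 9 markers all had a log2 fold change below 0 and summed to 250.4 to 298.8 CPM in Top3b-KO and 260.8 to 320.0 CPM in WT, with 0 of 9 passing the test. Gzma, Eomes and Prf1 stand in both lists, so the 2 are not independent. Of the receptor genes that the cytotoxic list shares with natural killer cells by expression, Klrd1, Klrk1 and Cd160 had log2 fold changes of 0.05, 0.0021 and 0.14. The part of natural killer cells in the cytotoxic list was not tested.

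Of the genes tied to GATA3 and type 2 responses, 9 of 12 were tested and 0 passed the adjusted threshold, with a median log2 fold change of -0.02. Il4ra, a receptor chain for interleukins 4 and 13, averaged 287 ± 14.7 CPM in Top3b-KO and 290 ± 15.5 CPM in WT. Rora, a factor of innate lymphoid and helper cells, averaged 22.1 ± 3.68 CPM in Top3b-KO and 22.8 ± 1.80 CPM in WT, and Il1rl1, the interleukin 33 receptor, 6.30 ± 0.286 CPM in Top3b-KO and 6.34 ± 0.675 CPM in WT. Ccr8, a chemokine receptor of type 2 and regulatory T cells singled out after its values were seen, had 11, 15 and 8 counts in Top3b-KO and 21, 20 and 19 counts in WT, with an adjusted p of 0.616 in edgeR's test. Il4, the signature cytokine of type 2 helper T cells and likewise singled out, had 1.02, 1.27 and 1.01 CPM in Top3b-KO and 0.839, 0.524 and 0.879 CPM in WT, a log2 fold change of 0.57 with an adjusted p of 0.915 in edgeR's test. These were the 2 genes, of 9 tested, whose groups did not overlap in CPM, beside 11.0% of all genes tested in either direction. Ccr8 was lower and Il4 higher in Top3b-KO, and Il4 rests on 8 to 32 counts a library.

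Genes of naive T cells gave 7 above 0 and 3 below 0 among 10 tested, a median log2 fold change of 0.05, and 0 past the adjusted threshold. Foxp1, a factor of quiescence, averaged 540.4 ± 12.5 CPM in Top3b-KO and 535 ± 55.5 CPM in WT, and S1pr1, the receptor for exit from lymphoid organs, 346 ± 22.6 CPM in Top3b-KO and 327 ± 10.1 CPM in WT. Klf2, a factor that drives S1pr1, had an unadjusted p under 0.05, with 262 ± 34.9 CPM in Top3b-KO and 317 ± 17.6 CPM in WT and an adjusted p of 0.670 in edgeR's test. B cells also express these naive-state genes.

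Other cells that can carry the coreceptors were read from their markers. CD8-type conventional dendritic cells had 10 tested markers, 2 above 0 and 8 below, that summed to 1260 to 1276 CPM in Top3b-KO and 1271 to 1434 CPM in WT. None passed the adjusted threshold. An unadjusted p under 0.05 was found for 3 of 10 (Irf8, Naaa and Itgax), all lower in Top3b-KO, beside 5.52% of all genes tested. Groups without overlap were found for 2 of the 10, both lower, beside 11.0% of all genes tested in either direction. The defining genes of these cells were low but not at 0: Xcr1 averaged 7.59 CPM in Top3b-KO and 8.25 CPM in WT, and Clec9a 10.7 CPM in Top3b-KO and 12.3 CPM in WT. The highest of the list, Wdfy4 and Irf8, are also made by B cells. CD4-type conventional dendritic cells had 7 of 8 markers tested, summing to 388.6 to 404.1 CPM in Top3b-KO and 387.8 to 414.8 CPM in WT, with 0 passing; Clec4a4 averaged 2.07 CPM in Top3b-KO and 2.13 CPM in WT. The highest of these were Irf4 and Sirpa.

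Plasmacytoid dendritic cells, some of which carry CD4 and which express Runx2, had 2 of 9 markers above 0 and 7 below, with a median log2 fold change of -0.18. These summed to 431.8 to 478.6 CPM in Top3b-KO and 478.7 to 522.0 CPM in WT, and 0 passed the adjusted threshold. An unadjusted p under 0.05 was found for 3 of 9 (Ly6d, Spib and Cox6a2) and groups without overlap for 3 of 9, all lower in Top3b-KO, beside 5.52% and 11.0% of all genes tested in either direction. Spib averaged 250.4 ± 22.2 CPM in Top3b-KO and 284 ± 25.2 CPM in WT, and Ly6d 76.7 ± 3.60 CPM in Top3b-KO and 91.4 ± 4.01 CPM in WT; both are B cell genes as well. Innate lymphoid cells of groups 2 and 3, which express Gata3, had 6 of 7 markers tested at 45.42 to 48.76 CPM in Top3b-KO and 47.59 to 49.95 CPM in WT, led by Kit and Il17rb, and their cytokine Il22 had 1 count in 1 library. The part of each of these cell types in the coreceptor and factor values was not tested.

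The remaining marker lists were read likewise. B cell markers, Pax5 among the highest, summed to 3819 to 3980 CPM in Top3b-KO and 3619 to 4237 CPM in WT. Neutrophil markers, led by Ltf and Ngp, summed to 566.7 to 1660 CPM in Top3b-KO, with the top value in replicate 3, and 787.5 to 1247 CPM in WT. Erythroid markers were led by Hbb-bs and Hba-a1. Gamma delta T cell markers, 5 genes led by Blk and Trgc2, summed to 193.5 to 200.2 CPM in Top3b-KO and 201.7 to 235.0 CPM in WT; Blk is also a B cell kinase. The lower sum follows Blk, with 173 ± 4.61 CPM in Top3b-KO and 196.5 ± 18.7 CPM in WT. Trgc2, a gamma chain constant gene, lay the other way with no overlap, at 10.1 ± 0.926 CPM in Top3b-KO and 7.84 ± 1.37 CPM in WT (adjusted p 0.829, edgeR), and Trdc, the delta chain constant gene, had a log2 fold change of 0.16. Thymocyte markers, 4 of 6 tested and led by Tespa1 and Cd1d1, summed to 113.1 to 116.6 CPM in Top3b-KO and 101.9 to 118.0 CPM in WT, and Ptcra, which defines immature thymocytes, had 1 count in Top3b-KO replicate 2 and 0 elsewhere. In none of these 5 lists did a gene pass the adjusted threshold.

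The genes whose levels ran closest to each coreceptor over the 6 libraries were found by the root mean square difference of mean-centred log2 CPM, in which 0 would be an identical course. For Cd4 these were Lta (0.0243), Hsp90ab1 (0.0249) and Abcc1 (0.0274), against a median of 0.134 over 8331 candidate genes. For Cd8a they were Prss12 (0.0167), Tspan31 (0.0178) and Dnaaf9 (0.0276), against 0.151 over 8049 candidates, and for Cd8b1 Slx4 (0.0243), Bend4 (0.0275) and Ripk1 (0.0289), against 0.137 over 8372. Among the members the closest pair with a coreceptor was Cd8a and Cd8b1 at 0.0585, followed by Cd8a and Gata3 at 0.0664. Cd4 was nearer to Runx3, at 0.0831, than to Zbtb7b, at 0.111. These values describe 6 libraries, in which every gene shares the library's depth and cell makeup.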

How the data were processed

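The deposited values are expected counts per gene symbol, made by the authors, in 1 table of 6 libraries. STAR and the build mm39 are named in the submitters' processing notes; what counted the reads, with which annotation and strand setting, is not stated there or elsewhere in the sources used. The labels' protocols name 2 stranded library kits and 2 sequencers and differ on read length, without saying which applies. Of the symbols 72 held a value that was not whole (tolerance 1e-06), none of them a member, and values were rounded.

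Genes were filtered with filterByExpr, scaled by TMM and tested with edgeR 4.0.16 (quasi-likelihood, R 4.3.3, limma 3.58.1) over 18716 genes, with Benjamini-Hochberg adjustment and a threshold of 0.05. The procedure was tested on simulated data. Ratios used counts within a library, and differences of mean log2 ratios were tested by exact permutation (two-sided). Levels per kilobase used exon unions of GENCODE M21 on GRCm38, a different build from mm39. The members and the gene lists were chosen with earlier results of these data known. Named were the 6 members, the 3 genes of highest mean CPM in each T cell list, the 2 highest and any defining marker at 0 in each marker list, and the 3 nearest genes to each coreceptor with a mean of at least 10 CPM and enough range. A few genes that this rule names are not reported here. Alternatives were no filter, a stricter filter at 20 counts, other scalings, DESeq2 1.42.0, limma-voom, a replicate block and leaving out each library.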

Additional observations from a re-analysis of the deposited data

How the results depend on the processing

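Over the 84 alternative values of the 6 genes, 0 passed the adjusted threshold, and Cd8a, Cd8b1 and Gata3 kept their direction in all of the alternatives run. The number of genes called over all genes, 2, was 44 with no filter, 6 with DESeq2 and 1 with limma-voom. Leaving out 1 library in turn gave 1 to 32 genes over all, and log2 fold changes of -0.0061 to 0.11 for Cd4, -0.145 to 0.0212 for Zbtb7b and -0.11 to 0.0476 for Runx3; the value of Cd4 below 0 came without WT replicate 3 and those of Zbtb7b and Runx3 above 0 without WT replicate 1. Leaving out Top3b-KO replicate 2 also put Zbtb7b (0.0095) and Runx3 (0.0065) above 0. The range was 0.066 to 0.22 for Cd8a, 0.072 to 0.189 for Cd8b1 and 0.037 to 0.119 for Gata3. The same left-out libraries gave log2 ratio differences of -0.0919 to 0.0362 for Cd4 to CD8, -0.0945 to 0.0135 for Zbtb7b to Runx3, -0.0512 to 0.0265 for Cd8b1 to Cd8a, -0.0520 to 0.0198 for Cd4 to CD3 chains and -0.0165 to 0.0793 for CD8 to CD3 chains. The Cd4 to CD8 difference was 0.0150 as a difference of medians. Against all 15 pan-T genes Cd4 gave 0.0248. The summed CD8 chains gave 0.0728 against the same 15 genes (exact permutation p = 0.2), beside 0.0330 against the CD3 chains. The causes were not tested. With the replicate number as a block, 41 genes were called over all and no member was (Cd8b1 0.12, Zbtb7b -0.06). The deviations of same-numbered libraries from their group means correlated at 0.149, -0.00511 and 0.00332 for replicates 1 to 3. Differently numbered pairs of a Top3b-KO and a WT library gave -0.0797 to 0.0779. With 3 libraries in each group these correlations cannot decide whether the numbers pair the libraries. Top3b-KO replicate 3 had the fewest counts and the widest counting intervals.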
